A study of Mus musculus with 19 samples.

Results

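The 9 genes described here are known as genes of Leydig cells, and all but Insl3 carry out or control androgen synthesis: Star, Cyp11a1, Cyp17a1, Hsd3b1, Hsd3b6, Hsd17b3, Insl3, Nr5a1 and Lhcgr. They were taken by name as Leydig cell steroidogenic genes, 9 of the 26182 genes with a curated RefSeq transcript on chromosomes 1 to 19, X and Y. The naming rule used no measured value. The data were 2 replicates of SOX3 ChIP-seq from mouse testis at postnatal day 7, each deposited as its own list of called peaks. SOX3 is a transcription factor that the study mapped as part of the network of undifferentiated spermatogonia (uSPG), the germ cells that include the stem cells. ChIP-seq sequences the DNA that comes down with an antibody against the factor, and a peak is a stretch where that DNA exceeds the input chromatin. Both replicates came from untreated animals with no mutant allele named, in a study whose mice were on the C57BL/6J background, and per the labels both used SOX3 antibodies from SCBT and EMD Millipore.

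The source tissue limits what these lists say about Leydig cells. The labels call it testis, while the study's methods describe seminiferous tubules freed from the tunica albuginea and taken from several mice for each experiment. Leydig cells lie between the tubules. How many of them remained in the chromatin was not measured, and a peak list holds no expression value against which markers of Leydig, Sertoli or germ cells could be checked. A peak is an average over all cells present, so a locus occupied in few cells and a locus occupied weakly in many cannot be told apart. The study describes SOX3 as specific to uSPG within the testis, and its staining showed SOX3 in uSPG at postnatal day 7. Which cells gave the peaks at these genes was not tested.

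Leydig cells make testosterone from cholesterol under the control of luteinizing hormone. The hormone acts through the receptor LHCGR and cyclic AMP, STAR brings cholesterol into mitochondria, and a chain of enzymes (CYP11A1, the 3β-hydroxysteroid dehydrogenases, CYP17A1 and HSD17B3) turns it into testosterone. The nuclear receptor NR5A1, also called steroidogenic factor 1, activates many of these genes, and INSL3 is a peptide hormone of the same cells that guides the descent of the testis.

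A peak was counted at a promoter when any of it lay within 2 kb of an annotated start site, in the gene body when it touched the gene outside that interval, and in the flank when it lay within 50 kb of the gene. Its strength is given by the q score, minus 10 times the log10 of the false discovery rate adjusted p-value from the authors' peak caller, which in both lists started at 30. Lists held 58351 peaks in replicate 1 and 38832 in replicate 2, with median q scores of 41.4 and 39.5. No test was made, because there were 2 replicates of 1 group and the lists hold no read counts. Counts over the 9 genes are therefore set beside the same counts over all genes.

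Of the 9 genes, 6 had a promoter peak in replicate 1 (62.7% of all genes did) and 6 in replicate 2 (54.7% of all genes). A promoter peak in both replicates was found at 5 of 9, namely Star, Cyp11a1, Cyp17a1, Hsd17b3 and Nr5a1, or 55.6% against 52.2% of all genes. This share lies near the background, so the count itself is not a result about these genes. All genes here include genes for noncoding RNA, whereas the 9 code for proteins. The share over protein-coding genes alone was not taken. Insl3 had a promoter peak in replicate 1 alone and Lhcgr in replicate 2 alone. Hsd3b1 and Hsd3b6 had none in either list. At all 5 genes with a promoter peak in both lists, a peak of one replicate overlapped a peak of the other.

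Promoter sequence is shown first, for those of the 9 genes that were matched in a table of promoters. The stretches are the 250 bases upstream of a RefSeq start site on GRCm38.p6, the assembly of mm10, written 5′ to 3′ in the direction of transcription. Of the 9 genes, 6 were matched in the promoter table, with 7 promoters; Star, Cyp17a1 and Nr5a1 were not. A peak spanned the start site shown in both lists at Cyp11a1 and Hsd17b3, and in 1 list at Insl3 and Lhcgr. At Hsd3b1 and Hsd3b6 no list had a peak nearby. Capitals mark a match to the letters ACAAAG or AACAAT, which SOX proteins recognise, on either strand.
Cyp11a1, chr9:57997774-57998023, plus strand: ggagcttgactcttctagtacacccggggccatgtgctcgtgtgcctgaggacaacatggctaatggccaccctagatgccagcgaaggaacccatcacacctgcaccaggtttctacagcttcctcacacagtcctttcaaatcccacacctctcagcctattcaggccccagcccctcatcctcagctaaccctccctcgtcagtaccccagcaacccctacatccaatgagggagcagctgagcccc
Hsd17b3, chr13:64089202-64089451, minus strand: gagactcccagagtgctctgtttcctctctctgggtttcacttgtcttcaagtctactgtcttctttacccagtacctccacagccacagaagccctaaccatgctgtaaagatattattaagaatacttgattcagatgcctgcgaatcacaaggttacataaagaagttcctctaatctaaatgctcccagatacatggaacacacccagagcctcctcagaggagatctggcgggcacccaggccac
Insl3, chr8:71689002-71689251, plus strand: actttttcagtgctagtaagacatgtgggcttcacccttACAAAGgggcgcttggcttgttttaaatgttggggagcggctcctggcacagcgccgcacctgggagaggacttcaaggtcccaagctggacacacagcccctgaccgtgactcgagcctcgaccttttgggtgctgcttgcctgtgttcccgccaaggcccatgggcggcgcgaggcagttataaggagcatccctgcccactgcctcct
Lhcgr, chr17:88792015-88792264, minus strand: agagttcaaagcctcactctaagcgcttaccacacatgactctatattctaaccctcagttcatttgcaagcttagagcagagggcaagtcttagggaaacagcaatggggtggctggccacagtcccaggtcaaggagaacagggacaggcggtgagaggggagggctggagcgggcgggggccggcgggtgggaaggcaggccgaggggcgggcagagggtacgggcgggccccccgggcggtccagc
Hsd3b1, chr3:98859795-98860044, minus strand: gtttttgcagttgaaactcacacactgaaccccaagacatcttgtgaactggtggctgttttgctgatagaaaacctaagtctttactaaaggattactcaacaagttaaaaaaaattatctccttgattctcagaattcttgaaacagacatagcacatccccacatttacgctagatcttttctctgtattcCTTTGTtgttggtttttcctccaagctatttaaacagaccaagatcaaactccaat
Hsd3b6, chr3:98814444-98814693, minus strand: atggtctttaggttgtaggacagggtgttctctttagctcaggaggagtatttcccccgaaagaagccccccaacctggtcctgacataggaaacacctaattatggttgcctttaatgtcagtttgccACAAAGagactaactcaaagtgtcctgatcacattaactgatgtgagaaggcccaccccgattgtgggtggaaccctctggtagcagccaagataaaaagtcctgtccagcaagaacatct

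All 250 bases of the Hsd17b3 stretch lay inside a peak in both lists. For Cyp11a1, 250 bases lay inside a peak in replicate 1 and 233 in replicate 2. The Insl3 stretch was covered over 250 bases in replicate 1 and over 0 in replicate 2. The Lhcgr stretch was covered over 0 bases in replicate 1 and over the 154 bases next to the start in replicate 2. Among the 6 printed stretches, the ones with a peak in both lists had no match to the SOX letters, and neither did Lhcgr. Insl3 held ACAAAG with its first base at −211, Hsd3b6 held it at −121, and Hsd3b1 held it on the opposite strand at −56, counted back from the start. ACAAAG was present in 16.5% and AACAAT in 9.42% of the 32851 promoters searched in the same way. The letters AAGGTCA, which NR5A receptors recognise, occurred in 4.08% of promoters and in none of the 7 found for these genes. CG pairs, the substrate of DNA methylation, numbered 4 in the Cyp11a1 stretch, 2 in Hsd17b3, 1 in Hsd3b1, 2 in Hsd3b6, 11 in Insl3 and 12 in Lhcgr.

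Nr5a1 had the strongest promoter peaks of the 9. It lies on the minus strand at chr2:38692656-38714542 with start sites at 38714542 and 38712234. In replicate 1 one peak of 6373 bp ran over both start sites (38709067 to 38715439, q score 102, log2 ratio of ChIP over input 3.58). It was among the widest 0.418% of that list. In replicate 2 the same interval held a peak of 3170 bp (38711732 to 38714901, q score 63.7, log2 ratio 2.93), among the widest 1.10%, and a smaller one of 928 bp (38709923 to 38710850, q score 47.5). Both lists thus had a broad peak at this gene. Above a q score of 60, Nr5a1 was the only one of the 9 with a promoter peak in both lists, where 35.2% of all genes passed. A further intronic peak in replicate 1 (38704117 to 38708298, q score 80.3) overlapped a short one in replicate 2 (38703935 to 38704550, q score 31.2).

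Lhcgr, the receptor for luteinizing hormone, lies on the minus strand at chr17:88737274-88792014. Its start site at 88792014 fell in a peak of replicate 2 (88791683 to 88792168), with a q score of 31.2 and a log2 ratio of 2.92. These exact values were held by 1790 peaks of that list, and it ranked 34836 of 38832 by q score. Replicate 1 had no promoter peak there, and its 1 peak in the gene body lay in an intron with a q score of 32.8. The whole window of 50 kb either side held 2 peaks in replicate 1 and 1 in replicate 2, none of them found in the other list. Every peak at Lhcgr was thus close to the lowest score listed.

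Star, the carrier of cholesterol into mitochondria, lies on the plus strand at chr8:25808474-25815982. The same upstream peak was listed in both replicates. It spanned 25805854 to 25806826 in replicate 1 (q score 60.2, log2 ratio 2.41) and 25805916 to 25806834 in replicate 2 (q score 58.6, log2 ratio 2.08), with its near edge 1648 bp and 1640 bp upstream of the start. A second peak covered the start in replicate 1 (25808026 to 25809972, q score 49.3). In replicate 2 the second peak began 687 bp downstream (25809161 to 25809685, q score 34.0). Body peaks of the 2 lists at Star did not overlap each other, with q scores of 34.6 and 41.9.

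Cyp11a1 encodes the side chain cleavage enzyme that makes pregnenolone from cholesterol. It lies on the plus strand at chr9:57998024-58027031, with start sites at 57998024 and 58014952. The upstream start lay in a peak in both lists, 57997589 to 57999062 in replicate 1 (q score 65.1, log2 ratio 2.79) and 57997791 to 57998515 in replicate 2 (q score 46.5, log2 ratio 2.08). A peak of replicate 1 also came within 1546 bp of the other start site (58011106 to 58013406, q score 43.0), and replicate 2 had none there. With the start sites of GENCODE M21, Cyp11a1 no longer had a promoter peak in both lists. Replicate 1 placed 2 further peaks in introns, 58002787 to 58004599 (q score 63.1) and 58008336 to 58009836 (q score 94.7), and replicate 2 listed 0 in the gene body.

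Cyp17a1, the 17α-hydroxylase and lyase that leads from progestins to androgens, lies on the minus strand at chr19:46667165-46673000. Both lists had a peak inside the gene, 46670282 to 46671123 in replicate 1 (q score 44.8, log2 ratio 3.22) and 46670254 to 46671098 in replicate 2 (q score 55.5, log2 ratio 2.67). Its near edge was 1877 bp and 1902 bp from the start at 46673000, so it entered the 2 kb interval only at its rim. With a 1 kb interval Cyp17a1 kept its promoter peak in replicate 1 alone, through a peak 194 bp from the start (46672297 to 46672806, q score 37.1). The shared peak also lay within 2 kb of the start of Gm41857.

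Hsd17b3, the testis enzyme that reduces androstenedione to testosterone, lies on the minus strand at chr13:64058274-64089201. The peak across its start site was centred 31 bp downstream of that site in replicate 1 (64088694 to 64089646, q score 88.4, log2 ratio 3.09) and 55 bp upstream in replicate 2 (64088839 to 64089674, q score 35.4, log2 ratio 1.89). A second promoter peak in replicate 1 (64086800 to 64087792, q score 52.6) had no counterpart. Hsd17b3 also had 5 intronic peaks in replicate 1, with q scores from 31.8 to 49.3, and 1 in replicate 2 at 30.1, none of which overlapped between the lists.

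Insl3 lies on the plus strand at chr8:71689252-71690577, where a transcript of the upstream gene Jak3 runs through to the same end, so the genes overlap. Its start site was covered in replicate 1 (71688814 to 71689659, q score 35.7, log2 ratio 2.37). In replicate 2 the nearest peak was 2826 bp from the gene, and a 5 kb interval would have counted Insl3 in both lists. The peak at the Insl3 start had values held by 773 peaks of its list. Such ties were not particular to Insl3 and Lhcgr. The shared peak of Cyp17a1 had values held by 778 peaks in replicate 1 and by 50 in replicate 2.

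**Figure D1:**
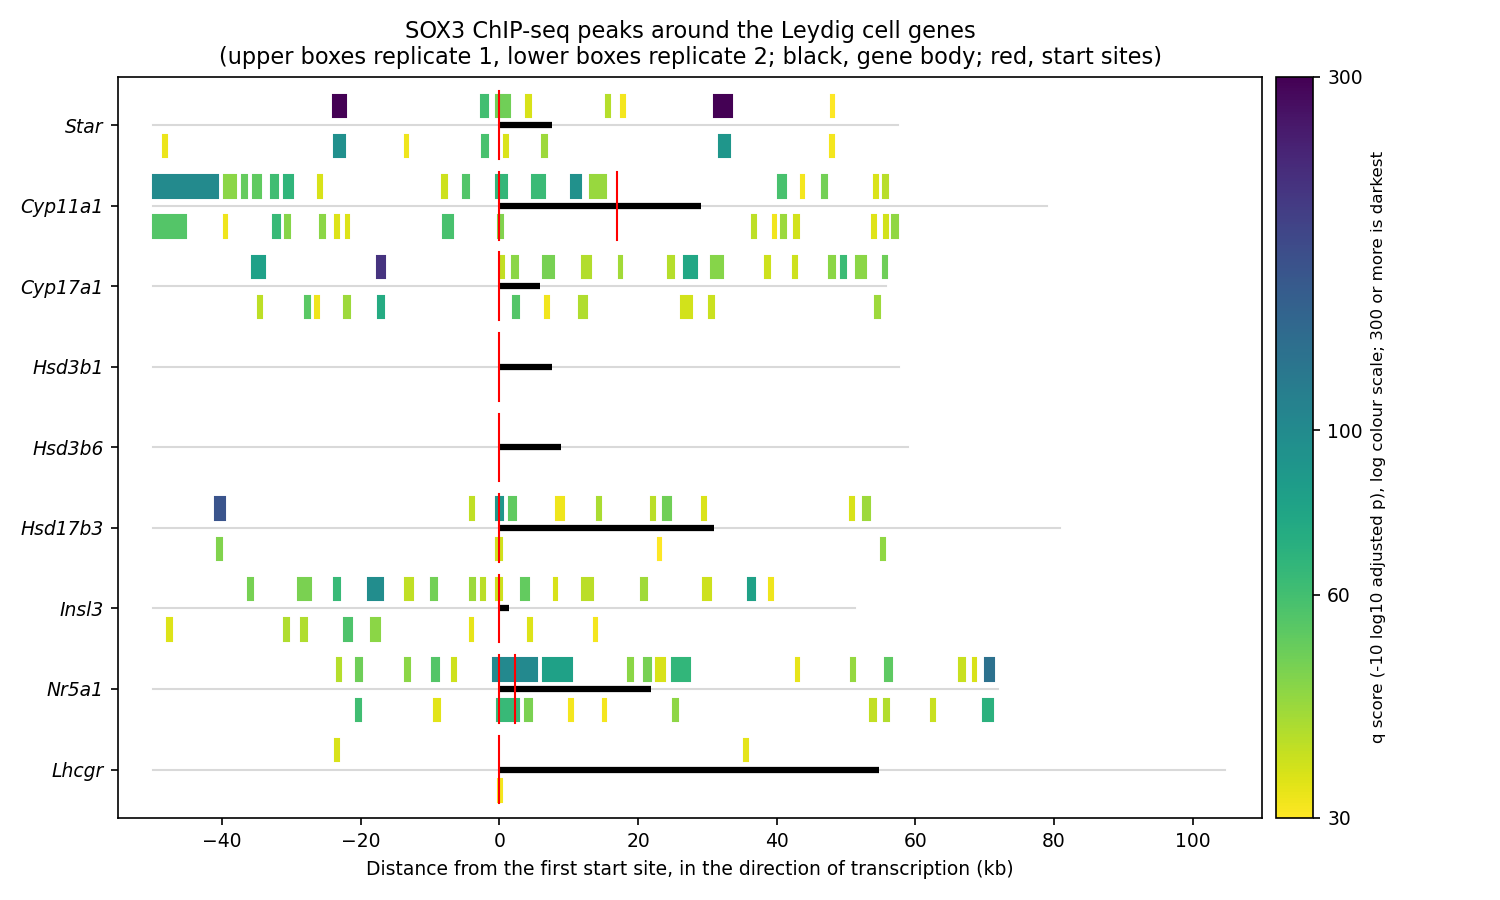
SOX3 ChIP-seq peaks around each of the 9 genes, placed by distance in kb from the first start site in the direction of transcription and cut at 50 kb beyond the gene. Each row has replicate 1 above the line and replicate 2 below it, with colour giving the q score on a log scale, the black bar the gene body and red lines the start sites. Hsd3b1 and Hsd3b6 have no box in either list, and the darkest boxes in the Star row, at scores of 301 and 335 in replicate 1, lie away from Star itself.

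Promoter peaks of the 9 genes were weak beside those of other genes. Where all genes with a promoter peak had a median best q score of 165 in replicate 1, the 6 genes ranged from 35.7 at Insl3 to 102 at Nr5a1. In replicate 2 the median over all such genes was 78.8, and the 6 genes ranged from 31.2 at Lhcgr to 63.7 at Nr5a1. In percentiles among genes with a promoter peak, Insl3 stood at 4.96 and Nr5a1 at 33.1 in replicate 1, and Lhcgr at 1.31 and Nr5a1 at 38.0 in replicate 2. Each of the 12 values was thus under the median of its list. The order of the genes differed between replicates below Nr5a1, with Hsd17b3 next after it in replicate 1 at 88.4 but above Lhcgr alone in replicate 2 at 35.4. Star lay below Hsd17b3 and Cyp11a1 in replicate 1 at 60.2 and next after Nr5a1 in replicate 2 at 58.6. The median log2 ratio of these promoter peaks was 2.55 in replicate 1 and 2.60 in replicate 2, beside 2.85 and 2.77 over all peaks. Their median q score went the other way, at 50.9 and 47.0 beside 41.4 and 39.5 over all peaks, which include those outside promoters.

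**Figure D2:**
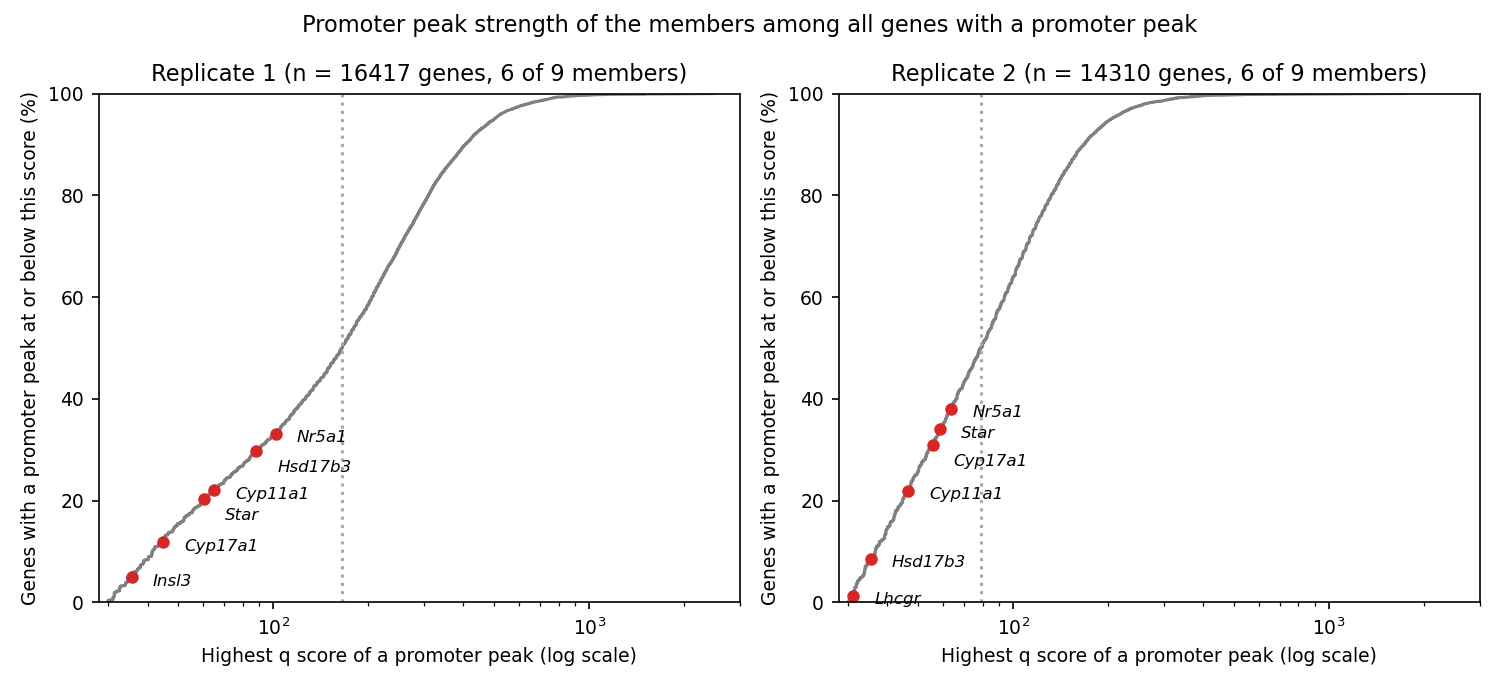
Highest promoter q score of each of the 9 genes that has a promoter peak (red points, log scale) on the cumulative curve of all genes with one (grey, y axis in percent), for 16417 genes in replicate 1 and 14310 in replicate 2. The dotted line is the median over those genes, 165 and 78.8, and every red point lies to its left.

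Hsd3b1 and Hsd3b6 encode 3β-hydroxysteroid dehydrogenases, the enzymes that convert pregnenolone and its products to the next steroids of the chain. They lie on the minus strand at chr3:98852194-98859794 and chr3:98805504-98814443. No peak was listed within 50 kb of either gene in either list, a state shared by 15.3% of all genes. The nearest peak was 108859 bp from Hsd3b1 and 154210 bp from Hsd3b6 in replicate 1. In replicate 2 these distances were 280914 bp and 326265 bp.

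The absence covered the whole gene cluster. Replicate 1 had no peak between 98429045 and 98968653 on chromosome 3, a stretch of 539607 bp with 9 genes that included Hsd3b1 to Hsd3b6 and Hao2. In replicate 2 the stretch ran over 711936 bp and held 10 genes. Stretches at least this long made up 1.33% of all intervals between peaks in replicate 1 and 1.54% in replicate 2, and together held 42.4% and 40.3% of the length between peaks. Hsd3b7, the family member on chromosome 7 that acts in bile acid synthesis, had a promoter peak in each list (q scores 130.2 and 120.0).

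The genome sequence of the Hsd3b1 and Hsd3b6 windows was more repetitive than that of the windows of the other genes. The transcripts of Hsd3b1 and Hsd3b6 were identical at 84.7% of aligned bases. Of the 50-base words in the window of each gene, 82.8% for Hsd3b1 and 81.7% for Hsd3b6 occurred once in the genome, where the other 7 windows had 92.4% to 96.7%. Repeats covered 37.8% and 45.2% of these windows, beside a median of 29.8% over all genes and 44.3% over genes with no peak within 50 kb in either list. Reads that fitted several places had been assigned to one of them at random. The part of this in the missing peaks was not tested.

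Gene body peaks outside the promoter were found at 5 of the 9 genes in replicate 1 (35.7% of all genes) and at 3 in replicate 2 (27.9% of all genes). Those in both lists were Star, Hsd17b3 and Nr5a1, 3 of 9 where 22.3% of all genes had one. In replicate 1 these were 12 peaks, of which 0 were found in replicate 2 by the rule that a single peak must cover at least 50% of their length. In replicate 2 there were 4, of which 1, at Nr5a1, was found in replicate 1. Of the promoter peaks, 3 of 10 from replicate 1 and 7 of 8 from replicate 2 were found in the other list.

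Within 50 kb of the 9 genes there were 88 distinct peaks in replicate 1 and 59 in replicate 2. Of these, 25.0% and 55.9% were found in the other list, beside 25.1% and 48.4% of all peaks. The windows differed widely. Cyp11a1 had 18 and 16 peaks in replicates 1 and 2, Nr5a1 17 and 11, Cyp17a1 16 and 11, and Insl3 16 and 8. Star had 8 and 8, Hsd17b3 11 and 4, and Lhcgr 2 and 1. Per 100 kb of window, Cyp11a1 had 14.0 and 12.4 peaks, at percentiles 87.1 and 94.6 among all genes, whose medians were 3.72 and 2.56. Cyp17a1, at 15.1 and 10.4 per 100 kb, stood at percentiles 89.6 and 90.6. Hsd17b3 lay nearer the middle in replicate 2, at 3.06 per 100 kb and percentile 56.5. Lhcgr lay below the medians in both lists, at 1.29 and 0.646 per 100 kb. Insl3 had the densest window of the 9 in replicate 1, at 15.8 per 100 kb, together with the weakest of the promoter peaks there.

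**Figure D3:**
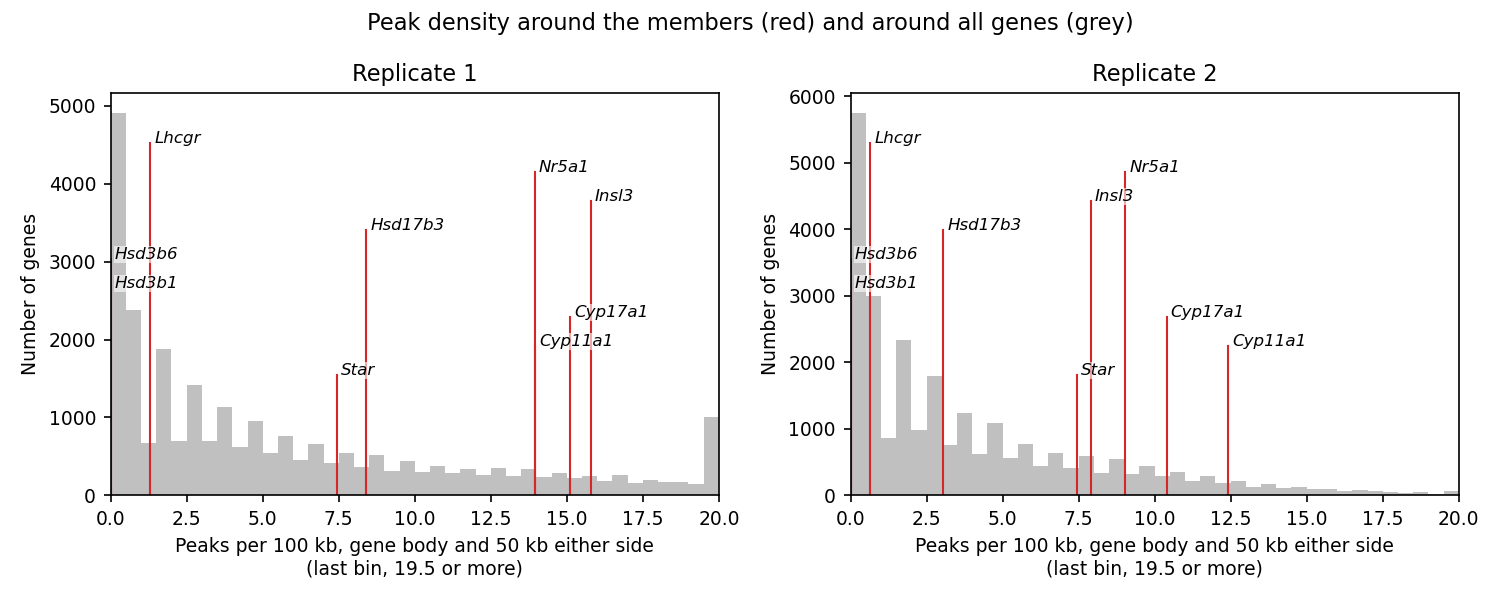
Number of peaks per 100 kb in the window of each gene (gene body and 50 kb either side), as a histogram over all 26182 genes (grey, y axis number of genes) with the 9 genes as red lines of arbitrary height. Cyp11a1, Cyp17a1, Nr5a1 and Insl3 lie above most genes in both panels, Lhcgr near the left edge, and Hsd3b1 and Hsd3b6 at 0.

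Part of the strong peaks in these windows sat at the promoters of neighbouring genes. Above a q score of 60 there were 22 peaks in replicate 1, of which 9 were at promoters of other genes, and 7 in replicate 2, of which 4 were. In the Star window the highest scores belonged to the shared promoter of Bag4 and Lsm1 (q scores 301 and 95.6 in replicates 1 and 2) and to Ash2l, a subunit of histone methyltransferase complexes (335 and 89.5), both far above the 60.2 and 58.6 of Star. In the Cyp17a1 window the promoter of Borcs7 reached 215 and 73.7, and that of As3mt, an arsenic methyltransferase, 80.9 and 37.7. The Wbp1l start sites there had 3 peaks in replicate 1, with q scores from 44.8 to 62.3. In the Hsd17b3 window the promoter of Slc35d2 reached 165 and 46.3. In the Nr5a1 window Psmb7, a subunit of the proteasome, reached 128 and 69.1. In the Insl3 window Unc13a reached 98.2 and 44.7, Fcho1 80.2 in replicate 1 alone, and B3gnt3 37.9 and 31.2. Jak3 had a promoter peak of 37.4 in replicate 1.

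Cyp11a1 differed from these windows in that 0 of its peaks lay at another gene's promoter. Its strongest was a peak of 11364 bp in replicate 1 (57946111 to 57957474, q score 100.2) with its midpoint in an intron of Sema7a, upstream of Cyp11a1. Replicate 2 had a peak of 4898 bp inside it (57947905 to 57952802, q score 55.6). Between this block and the gene, both lists had peaks at 57965124 to 57966139 in replicate 1 (q score 60.7) and 57965404 to 57966310 in replicate 2 (q score 63.8). Peaks downstream of the gene lay in introns of Ccdc33, and none of them reached a q score of 60. Which gene a flanking peak belongs to cannot be read from position alone.

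The base composition of the promoters was not used to choose the genes. CpG observed over expected, the ratio of CG pairs found to those the C and G content predicts, was taken over 500 bp either side of the start site, with the highest start site per gene. It was 0.0816 at Hsd3b1, 0.164 at Star, 0.182 at Hsd3b6, 0.205 at Hsd17b3, 0.213 at Cyp17a1, 0.380 at Lhcgr, 0.428 at Cyp11a1, 0.590 at Insl3 and 0.883 at Nr5a1. The median of the 9 was 0.213 and that of all genes 0.539. Genes with a promoter peak in both lists had a median of 0.750 and genes with one in neither list 0.194. Of the 9 promoters, 6 were thus below 0.4, with Cyp11a1, Insl3 and Nr5a1 above it.

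The counts were also set beside genes of like CpG content. Of the 10803 genes with a ratio below 0.4, 11.8% had a promoter peak in both lists. Of the 6 steroidogenic genes in that class, 3 did, namely Star, Cyp17a1 and Hsd17b3, while Hsd3b1, Hsd3b6 and Lhcgr did not. Cyp17a1 counted only through a peak at the rim of the 2 kb interval, and a 1 kb interval lost it. Between 0.4 and 0.6 the share over all genes was 52.1%, with Cyp11a1 having such a peak and Insl3 not. At 0.6 or more it was 89.0%, and Nr5a1 had one. The CpG-poor genes with a promoter peak had a median best q score of 48.8 in replicate 1 and 42.4 in replicate 2. Beside these stood 60.2 and 58.6 at Star, 44.8 and 55.5 at Cyp17a1 and 88.4 and 35.4 at Hsd17b3. Lhcgr, with a promoter peak in replicate 2 alone, stood at 31.2. Between 0.4 and 0.6 the medians were 90.3 and 53.2. Cyp11a1, at 65.1 and 46.5, and Insl3, at 35.7 in replicate 1, lay below them. Nr5a1, at 102 and 63.7, was under the medians of the CpG-rich class, 215 and 92.0. These comparisons rest on 9 genes and carry no test.

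**Figure D4:**
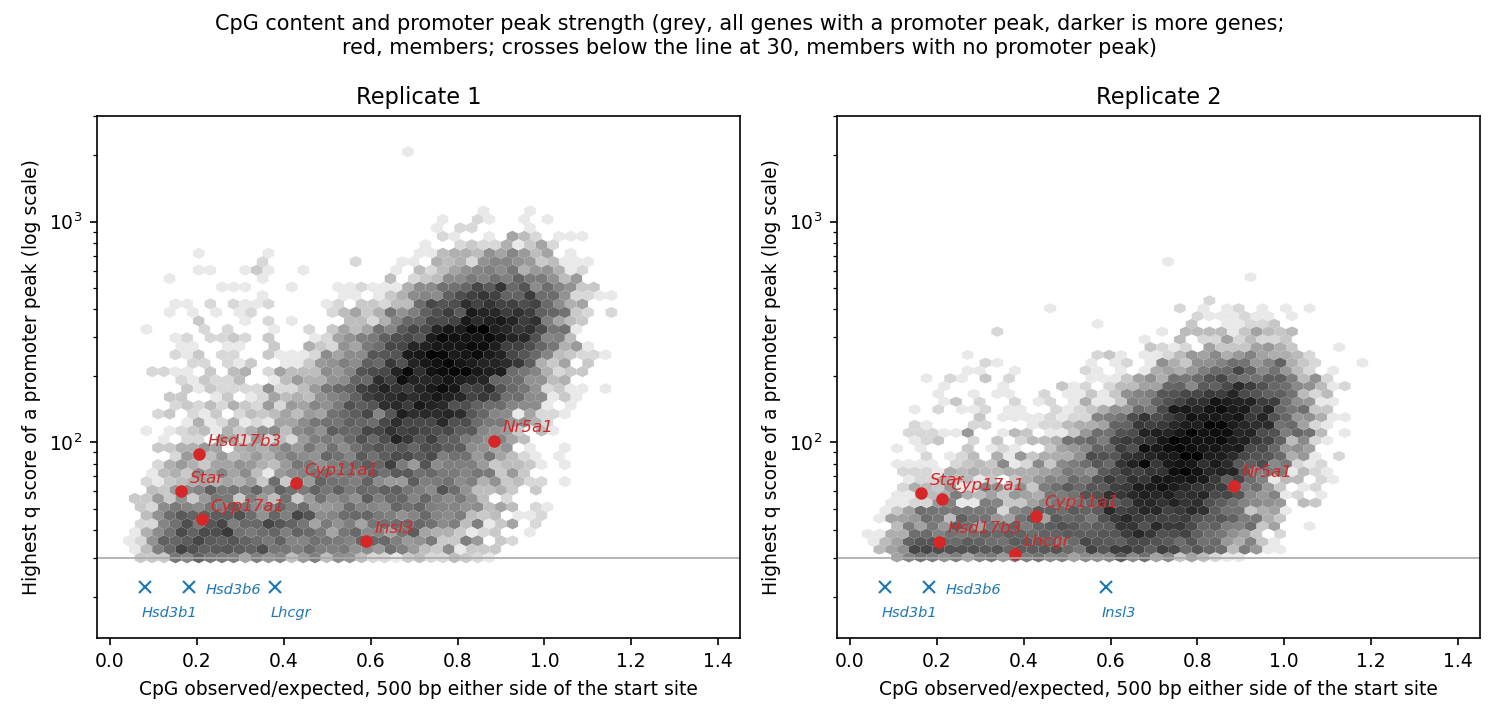
Highest promoter q score (y axis, log scale) against CpG observed over expected of the promoter (x axis) for all genes with a promoter peak (grey, darker where more genes fall) and for the 9 genes (red points; blue crosses below the line at 30 for those without a promoter peak in that list). Star, Cyp17a1 and Hsd17b3 lie near 0.2 on the x axis among the sparse CpG-poor genes, and Nr5a1, at 0.883, lies at the lower edge of the dense cloud.

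The SOX letters were also counted under the peaks. AACAAT or ACAAAG occurred in 5 of the 10 promoter peaks of replicate 1 and in 1 of the 8 of replicate 2, beside 61.3% and 57.0% of all peaks. Per kb of peak this was 0.639 and 0.356 matches at these promoters and 1.11 and 1.05 over all peaks. Nr5a1 held 6 of the matches in replicate 1 and 3 in replicate 2, all in its broad peak. The promoter peaks of Star and Cyp17a1 held 0 in both lists. Flank peaks stood at 65.2% and 66.0%, above the share over all peaks in both lists. Gene body peaks, 12 and 4 in number, stood at 75.0% in each list, with 0.979 and 2.20 matches per kb. All peaks include those outside promoters, and promoter peaks of other genes were not counted separately. Whether the lower values at these promoters are particular to these genes was therefore not tested. A match is only a run of letters, and its absence says nothing about how the factor reached the site.

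Other genes of the pathway were counted from 3 lists. Genes for cholesterol supply and electron transfer had a promoter peak in both replicates at 14 of 14. Among the highest scores were those of Npc2 (q scores 184 and 196), which moves cholesterol out of lysosomes, Por (222 and 147), the electron donor of microsomal cytochromes P450 such as CYP17A1, and Fdx1 (373 and 124), the ferredoxin that feeds electrons to CYP11A1. Among other steroid-converting enzymes, 10 of 21 annotated genes had one in both lists and 11 in neither. Here the highest were Srd5a3 (535 and 189), a polyprenol reductase of the 5α-reductase family, Hsd3b7 (130.2 and 120.0), Hsd17b12 (171 and 109.7), which also elongates fatty acids, and Hsd17b1 (119 and 73.7), which makes estradiol. Hsd3b2, Hsd3b3, Hsd3b4 and Hsd3b5, of the chromosome 3 cluster, had none.

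Regulators and signals of Leydig cells had a promoter peak in both lists at 22 of 26 genes. The highest scores were at Creb1 (593 and 231), a factor that responds to cyclic AMP, Prkar1a (498 and 218), a regulatory subunit of protein kinase A, Ptch1 (396 and 182), the hedgehog receptor, and Gnas (469 and 172), which encodes the stimulatory G protein. Rxfp2, the receptor for INSL3, and Mc2r, the receptor for corticotropin, had none in either list. Over the 3 lists, 46 of 61 genes (75.4%) had a promoter peak in both replicates, where all genes, noncoding ones included, stood at 52.2%.

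The 3 pathway lists differed in CpG content in the same order as in peaks, an order that the lists of other testis cells did not keep. The median CpG observed over expected was 0.700 for cholesterol supply and electron transfer, 0.659 for regulators and signals and 0.292 for other steroid-converting enzymes. Of the 12 CpG-poor enzyme genes (below 0.4), 2 had a promoter peak in both lists, and of the 6 CpG-rich ones (0.6 or more), 6 had one. The 2 lists of other testis cells stood at 17 of 20 for Sertoli cell genes (85.0%, median CpG 0.587) and 17 of 22 for spermatogonial genes (77.3%, median CpG 0.685). Regulators and signals, at 84.6%, had a higher CpG median than the Sertoli list but not a higher share. The Sertoli list shares 5 genes with that of regulators and signals. Median best q scores were taken over the genes with a promoter peak in the replicate. They were 247 and 105 for the Sertoli list and 107.5 and 61.1 for the spermatogonial list. For the steroidogenic genes they were 62.7 and 51.0, over 6 of the 9 genes in each replicate. The part of CpG content in these differences was not tested.

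**Figure D5:**
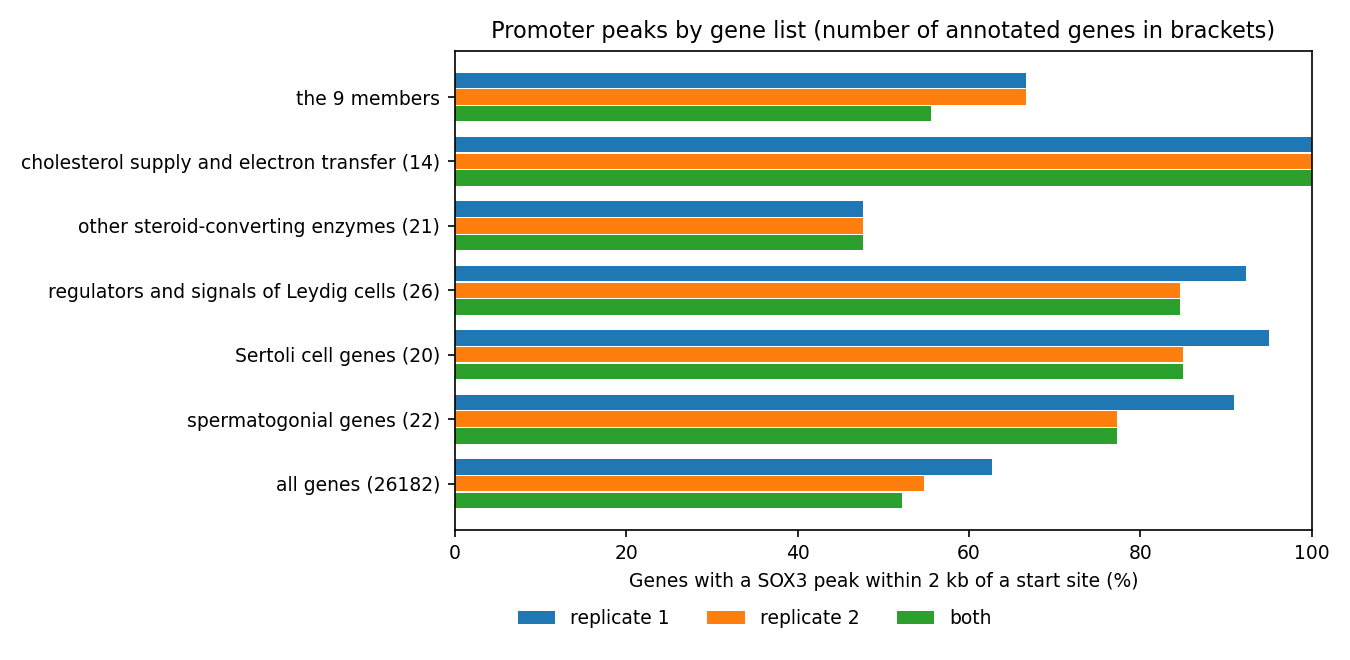
Share of genes with a promoter peak in replicate 1, in replicate 2 and in both (x axis, percent, bars from 0) for the 9 steroidogenic genes, the 3 pathway lists, the lists of Sertoli cell and spermatogonial genes and all 26182 genes, with the number of annotated genes in brackets. The 9 genes, at 55.6% in both, lie close to all genes at 52.2%, and the other steroid-converting enzymes lie at 47.6%.

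SOX3 was also mapped by ChIP-nexus in the same tissue, a variant in which an exonuclease trims the DNA back toward the bound protein. Its 2 lists held 111 and 19 regions. None lay within 50 kb of any of the 9 genes, and the nearest was 1774114 bp from Cyp11a1 in replicate 1. Lists this short give no reading on single genes.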

How the data were processed

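SOX3 ChIP-seq was measured in 2 testis replicates, which the labels number 1 and 2. According to the study's methods, the authors aligned reads to mm10 with Novoalign (reads that fitted several places went to one at random), removed duplicates with Picard and called peaks per replicate with USeq, keeping those with a q score above 30. The deposited lists have no header, so the columns were read from the caller's layout and the values: the deposited scores are minus 10 times the log10 of the p-value and of its adjusted value, and the deposited log2 ratio is ChIP over input, normalised by the authors. The deposited ChIP-nexus lists give a score, fold enrichment as a ratio, and −log10 p and q, from MACS2 2.1.1 in the submitters' processing notes; the control is not given in the sources used here. The lists hold no read counts, and the read numbers that the study states per library were not used here. The other 15 of 19 samples were not analysed here.

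Positions were converted to 1-based and matched to GRCm38.p6 RefSeq curated transcripts (45756 of 26182 genes) with Python 3.11.15 and pandas 2.3.3. Promoters were 2 kb either side of a start site and flanks 50 kb beyond the gene. A peak was found in the other replicate when 1 peak covered at least 50% of it. Percentiles are over all genes, or over genes with a promoter peak for q scores. Promoter sequences are from RefSeq, CpG values and 50-base words from the genome, and transcript identity from a global alignment with Biopython 1.88. The overlap code was tested on simulated data. The 9 genes and the gene lists were named from their known function, by no measured value, but with earlier results of these data known. All 9 genes are named, as are genes whose promoters hold a peak in their windows, and from each pathway list up to 4 genes with the highest lower q score of the 2 replicates and up to 4 with no promoter peak, in list order. Of these, 1 gene is not reported here. Sts, 1 of the 22 listed enzymes, is not in the annotation used. Alternatives covered the q score, promoter and flank sizes, overlap rule, annotation, CpG window and each replicate alone. The one with GENCODE M21 was chosen after seeing the data.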

Additional observations from a re-analysis of the deposited data

How the results depend on the processing

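Of 52 alternative values, 32 were set down as the same, under a limit of 1.5 times or 1 SD of the main value. The other 20 were set down as moved. These included both alternative CpG medians, although each lay within 1.5 times of the main value of 0.213. A q score above 60 left 1 of the 9 genes (Nr5a1) with a promoter peak in both replicates and 1 in replicate 2, 0 with a gene body peak in both, 14.5 peaks within 50 kb (mean of the replicates; 73.5 in the main setting) and 35.2% of all genes with a promoter peak in both. Above 100 these were 0, 0, 0, 3.5 and 19.7%, with 1 of the 9 genes in replicate 1 and 15 of the pathway genes in both. A promoter interval of 1 kb lost Cyp17a1 and one of 5 kb added Insl3, and GENCODE M21 start sites lost Cyp11a1. The share over all genes was 40.8% with predicted RefSeq transcripts and 30.4% with GENCODE M21, which hold more genes (38662 and 55341). Flanks of 20 kb and 100 kb gave 39.5 and 110.5 peaks. The median CpG ratio was 0.253 with 1 kb either side and 0.269 from 250 bp upstream to 50 bp downstream. With 1 replicate alone, 6 of the 9 genes had a promoter peak in either case and 3 to 5 a gene body peak. A promoter peak was then found at 46 to 48 pathway genes and 54.7% to 62.7% of all genes, with 59 to 88 peaks within 50 kb. The share of these found in the other list, 25.0% and 55.9%, needs both lists and so is no result of 1 replicate. These shares lie within 1 SD of their own mean by construction, so their label as the same carries no information. No paired analysis was possible because the values come from no test and from 1 group, whose replicate numbers recur only in other assays. With no read counts in the lists, a gene without a peak is only one that passed no threshold.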
